A study of Mus musculus with 24 samples.

Results

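The genes described here are 10 members of the unfolded protein response of the endoplasmic reticulum (ER), picked by a rule that uses gene symbols alone: *Hspa5*, *Hsp90b1*, *Dnajb9*, *Sdf2l1*, *Creld2*, *Xbp1*, *Atf6*, *Pdia4*, *Herpud1* and *Edem1*. They are 10 of the 25229 gene symbols in the deposited count table, and all 10 were among the 12941 genes with enough reads to be tested. Their mRNA was measured in ID8 P53 KO cells, a mouse ovarian cancer cell line that lacks p53 in every group. RNA was extracted on day 6. The 4 treatments, of 6 libraries each, were the vehicle DMSO, 750 nM cisplatin, 2.5 uM AU15330, and both drugs together. AU15330 (AU-15330 below) is a PROTAC, a molecule that sends the chromatin remodelling proteins SMARCA4 and SMARCA2 to degradation, and cisplatin crosslinks DNA. All cells grew in high-glucose DMEM with pyruvate, 4% fetal bovine serum and an insulin, transferrin and selenium supplement. The cisplatin concentration is the one in the sample labels, whereas the methods of the study give another value for this line. The libraries come from 1 cell line in culture. Nothing in the labels says whether the 6 replicates of a treatment were grown separately, so p-values measure the spread between these libraries.

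Proteins that enter the secretory pathway fold in the ER with the help of chaperones and of enzymes that form disulfide bonds. When unfolded proteins accumulate there, the sensors IRE1, ATF6 and PERK signal to the nucleus. IRE1 splices *Xbp1* mRNA so that it encodes an active transcription factor, ATF6 is cut in the Golgi to release another, and PERK slows translation and raises ATF4. These factors raise chaperones, folding enzymes and the machinery that returns misfolded proteins to the cytosol for destruction, which is called ER-associated degradation. Counts of reads per gene show the amount of each mRNA, and neither the spliced form of *Xbp1* nor the cut form of ATF6 can be told from them.

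Transcription factors of this response bind short promoter elements, so the promoters of the 10 genes were searched for them. The windows ran from 250 bases before to 50 bases after the start of each gene in RefSeq (GRCm38.p6), and 9 of the 10 genes had one, with no entry for *Atf6*. Both strands were searched for the ER stress response element, which is CCAAT and CCACG with 9 bases between them, and for its second form, ATTGG and CCACG with 1 base between them. Both forms end in CCACG, and no match of one overlapped a match of the other in these genes. The first form was in 39 of 32851 RefSeq windows (0.119%) and in the windows of *Hspa5*, *Hsp90b1* and *Creld2*. The second form was in 12 windows (0.0365%), among them that of *Herpud1*. The matched stretches of these 4 genes are shown because such elements are the sites at which ATF6 and XBP1 are known to act. Capitals mark the element, each stretch reads along the strand of its gene, and positions are counted back from −1, the last base before the RefSeq start.
Hspa5: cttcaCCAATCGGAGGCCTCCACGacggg
Hsp90b1: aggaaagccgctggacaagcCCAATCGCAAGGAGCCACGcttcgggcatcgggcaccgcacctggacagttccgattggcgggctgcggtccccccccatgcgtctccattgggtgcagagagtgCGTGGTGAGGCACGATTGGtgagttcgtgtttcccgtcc
Creld2: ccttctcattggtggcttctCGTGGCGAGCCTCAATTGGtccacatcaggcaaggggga
Herpud1: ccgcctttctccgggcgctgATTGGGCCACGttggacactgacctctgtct
The *Hspa5* stretch lies at chr2:34772020-34772048 on the plus strand with the element from −65 to −47. GENCODE M21 starts *Hspa5* before this stretch, which so lies inside the gene in that annotation. *Hsp90b1* (chr10:86705513-86705676, minus strand) carried the element in both orientations, from −212 to −194 as written and from −107 to −89 as the reverse complement. In *Creld2* (chr15:88819500-88819558, plus strand) it was the reverse complement, from −126 to −108, and in *Herpud1* (chr8:94386357-94386407, plus strand) the second form lay from −52 to −42. These 3 stretches lie before the GENCODE start of their gene. A match is a description of the letters, and the factors' binding was not measured in these libraries.

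The genes lie on 9 chromosomes (GENCODE M21, GRCm38). The chaperone genes are *Hspa5* (chr2:34771970-34777547), *Hsp90b1* (chr10:86690209-86705509), *Dnajb9* (chr12:44205559-44210326), *Sdf2l1* (chr16:17130138-17132383) and *Creld2* (chr15:88819646-88826683). The transcription factor genes are *Xbp1* (chr11:5520659-5525893) and *Atf6* (chr1:170704674-170867771), and the disulfide isomerase gene *Pdia4* (chr6:47796141-47813430) shares its chromosome with *Edem1* (chr6:108828641-108859356). *Herpud1* is at chr8:94386438-94395377. Reads were counted over whole genes, so the values refer to all exons together. Of *Hsp90b1*, 415 exonic bases are also exonic on the opposite strand in 1810014B01Rik, which had 48 to 108 counts per library in the table against at least 12742 for *Hsp90b1*.

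Library totals ran from 17592588 to 25260009 counts, so that 3 counts stood for 0.120 to 0.186 CPM (counts relative to the size of the library, scaled with edgeR's TMM factors). All 10 genes were far above that floor, which covers counting error only. A gene is said to be higher or lower where edgeR's quasi-likelihood F test over all 24 libraries gave a Benjamini-Hochberg adjusted p under 0.05 over the 12941 tested genes, and log2 fold changes are given with their standard error (SE). The epithelial and mesothelial markers *Krt8*, *Krt18*, *Msln* and *Wt1* were detected in every library, at 99.9 CPM or more, and *Krt7* was at or near 0 in part of them. All 7 markers of that list were lower with AU-15330 than with DMSO (37.2% of all tested genes were), with *Krt19* falling from a mean of 1783 to 7.005 CPM, and 5 of the 7 were higher with cisplatin (26% of all tested genes), with *Upk3b* at 45.3 CPM in DMSO and 197 CPM with cisplatin. Of 8 markers of blood, immune and endothelial cells, 7 had 5 counts or fewer in every library. *Pecam1* had 5 to 274, with means of 3.60 CPM in DMSO, 10.2 CPM with cisplatin, 0.458 CPM with AU-15330 and 0.748 CPM with both. The part of either marker list in the levels of the 10 genes was not tested. In bulk RNA such as this, fewer cells of a kind and less RNA per cell cannot be told apart.

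At the level of single libraries, DMSO stood above the treated groups and was by far the most spread. Summed over the 10 genes, DMSO libraries held 2667, 5802 and 7211 CPM (lowest, median and highest), cisplatin libraries 2467, 2484 and 2585, AU-15330 libraries 2112, 2189 and 2279, and libraries with both drugs 2160, 2244 and 2305. *Hspa5* and *Hsp90b1* weigh most in these sums, with DMSO means of 2568 and 1412 CPM, and *Atf6* came next with 349 CPM. The lowest DMSO sum came from replicate 1, and the next lowest was 5204 CPM. That library also had the smallest total of the 24, 17592588 counts. It was the lowest of the 6 DMSO libraries for 10 of 10 genes, against 23.7% of all tested genes, and it lay inside the range of the cisplatin libraries for 6 of them. The other 5 DMSO libraries lay above every cisplatin library for 10 of 10 genes, against 12.6% of all tested genes. The median SD of log2 CPM over the 10 genes was 0.41 in DMSO (0.25 over all tested genes), 0.11 with cisplatin (0.19), 0.10 with AU-15330 (0.14) and 0.09 with both (0.14). Nothing in the labels sets replicate 1 apart, and the values of the 10 genes against DMSO are given with and without it.

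**Figure D1:**
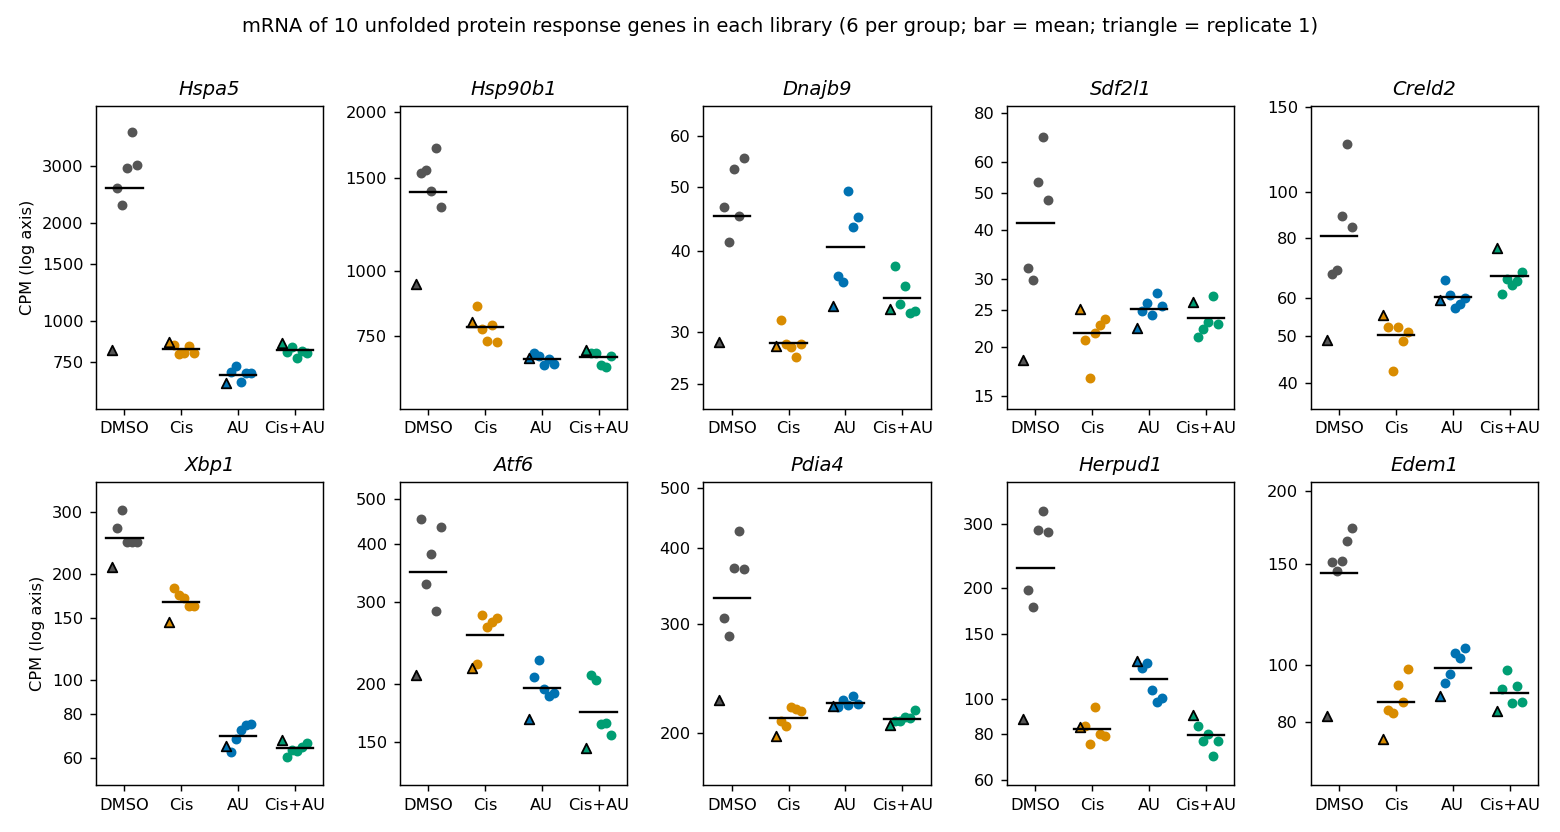
CPM of each of the 10 genes (log axis, with its own range in each panel) in the 6 libraries of each treatment, with the mean as a bar and replicate 1 as a triangle; Cis is cisplatin and AU is AU-15330. The DMSO triangle is the lowest DMSO point in all 10 panels, and the DMSO means, 2568 CPM for *Hspa5* and 254 CPM for *Xbp1*, are above those of the 3 treated groups.

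*Hspa5* encodes BiP, the ER member of the HSP70 chaperones, which also holds the sensors inactive in unstressed cells. In DMSO its mRNA was 814 CPM in replicate 1 and 2555, 2271, 2948, 3810 and 3012 CPM in replicates 2 to 6. With cisplatin the lowest, median and highest libraries were 794, 818 and 864 CPM, with AU-15330 646, 692 and 727 CPM, and with both drugs 772, 807 and 858 CPM. Hence 5 of the 6 DMSO libraries were more than 2-fold above every treated library, and replicate 1 overlapped the cisplatin and combination groups while staying above all AU-15330 libraries. The mean was 2568 ± 1005 CPM in DMSO and 823 ± 30.2 CPM with cisplatin (SD, n = 6 each). *Hspa5* was 3.12-fold lower with cisplatin (log2 fold change −1.64, SE 0.19, adjusted p = 7.7e-08) and 3.76-fold lower with AU-15330 (−1.91, SE 0.19, adjusted p = 1.6e-09). Without DMSO replicate 1 these log2 values were −1.81 and −2.09. With replicates 1 to 3 alone they were −1.18 and −1.45, and with replicates 4 to 6 they were −2.02 and −2.28.

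*Hsp90b1* encodes GRP94, the HSP90 chaperone of the ER. Its lowest, median and highest values were 941, 1472 and 1712 CPM in DMSO, 732, 782 and 855 CPM with cisplatin, 661, 681 and 698 CPM with AU-15330, and 656, 693 and 705 CPM with both. No DMSO library overlapped a treated one. The gene was 1.81-fold lower with cisplatin (log2 fold change −0.85, SE 0.09, adjusted p = 1.7e-08) and 2.08-fold lower with AU-15330 (−1.06, SE 0.09, adjusted p = 7.8e-11), or by −0.93 and −1.14 without DMSO replicate 1.

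The other 3 chaperone genes had lower levels per kilobase of exon. *Dnajb9* encodes ERdj4, a J-domain partner of BiP. It ranged from 29.0 to 55.5 CPM in DMSO, from 27.5 to 31.4 CPM with cisplatin and from 32.9 to 49.3 CPM with AU-15330. DMSO replicate 1 lay among the cisplatin libraries, and the AU-15330 libraries lay among those of DMSO. The gene was lower with cisplatin (log2 fold change −0.65, SE 0.11, adjusted p = 3.7e-05; −0.72 without DMSO replicate 1), and its difference with AU-15330 did not pass the threshold (−0.16, 95% interval −0.39 to 0.08, adjusted p = 0.208). Without DMSO replicate 1 the latter became −0.25 and passed (adjusted p = 0.0169), and without replicate 1 of every group it was −0.22 (adjusted p = 0.0282).

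*Sdf2l1*, whose product works with BiP and its J-domain partners, was at 18.6 CPM in DMSO replicate 1 and at 29.7 to 69.7 CPM in the other DMSO libraries. The 18 treated libraries lay between 16.7 and 27.6 CPM, all below those 5. It was lower with cisplatin (log2 fold change −0.94, SE 0.19, adjusted p = 0.00019) and with AU-15330 (−0.74, SE 0.19, adjusted p = 0.0011), with −1.07 and −0.88 when DMSO replicate 1 was left out. *Creld2*, an ER protein with isomerase activity, was at 49.1 CPM in DMSO replicate 1 and 67.3 to 125.9 CPM in the others. Its cisplatin libraries lay from 42.4 to 55.5 CPM and its AU-15330 libraries from 57.3 to 65.5 CPM. It was lower with cisplatin (−0.68, SE 0.13, adjusted p = 0.00013) and with AU-15330 (−0.42, SE 0.13, adjusted p = 0.0062), with −0.77 and −0.52 when DMSO replicate 1 was left out. The second call was lost without replicate 5 of every group, which holds the highest DMSO library (−0.24, adjusted p = 0.0726). Fits of replicates 1 to 3 alone lost both calls of both genes. *Sdf2l1* then had −0.36 with cisplatin (adjusted p = 0.175) and −0.14 with AU-15330 (adjusted p = 0.56), and −1.34 and −1.16 with replicates 4 to 6 alone. *Creld2* had −0.31 with cisplatin (adjusted p = 0.126) and 0.0021 with AU-15330 (adjusted p = 0.991), and −0.99 and −0.78 with replicates 4 to 6.

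Both transcription factor genes were lower with AU-15330, without and with cisplatin, in the fit over all 24 libraries. *Xbp1* had 209, 246 and 304 CPM in DMSO (lowest, median, highest), 146, 166 and 183 CPM with cisplatin, 62.1, 69.9 and 74.7 CPM with AU-15330, and 60.2, 63.6 and 67.4 CPM with both. The DMSO and cisplatin groups did not overlap each other or either AU-15330 group, whereas the AU-15330 groups overlapped. *Xbp1* was 1.53-fold lower with cisplatin (log2 fold change −0.61, SE 0.07, adjusted p = 1.3e-07) and 3.66-fold lower with AU-15330 (−1.87, SE 0.08, adjusted p = 1.5e-17). Its DMSO spread was the smallest of the 10 genes (SD 0.18 on the log2 scale), and without DMSO replicate 1 the values were −0.64 and −1.92.

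*Atf6* ranged from 210 to 453 CPM in DMSO, from 216 to 282 CPM with cisplatin, from 168 to 226 CPM with AU-15330 and from 146 to 209 CPM with both. Replicate 1 was its lowest library in all 4 groups. It was lower with cisplatin by the smallest amount of the 10 genes (log2 fold change −0.45, SE 0.14, adjusted p = 0.0077), and this call was lost without replicate 2 of every group (−0.32, adjusted p = 0.065). With AU-15330 it was 1.78-fold lower (−0.83, SE 0.14, adjusted p = 5.7e-06). Leaving out DMSO replicate 1 gave −0.54 and −0.93.

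*Pdia4* encodes ERp72, an isomerase that makes and rearranges disulfide bonds. In DMSO it was at 226 CPM in replicate 1 and at 287 to 426 CPM in the other libraries, against 197 to 220 CPM with cisplatin and 220 to 230 CPM with AU-15330. The cisplatin libraries were below every DMSO library, and DMSO replicate 1 lay among those of AU-15330. The gene was 1.57-fold lower with cisplatin (log2 fold change −0.65, SE 0.09, adjusted p = 2.2e-06) and 1.48-fold lower with AU-15330 (−0.57, SE 0.09, adjusted p = 5.7e-06). Leaving out DMSO replicate 1 gave −0.72 and −0.65. Replicates 1 to 3 alone gave −0.43 (adjusted p = 0.0084) and −0.30 (adjusted p = 0.0276), and replicates 4 to 6 gave −0.84 and −0.80.

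The genes of ER-associated degradation also had their highest values in DMSO. *Herpud1* encodes a membrane protein that assembles the ubiquitin ligase complex of this pathway. Its DMSO libraries held 88.2 CPM in replicate 1 and 178 to 324 CPM otherwise, its cisplatin libraries 75.4 to 95.03 CPM, its AU-15330 libraries 98.03 to 126 CPM and those with both drugs 69.8 to 90.5 CPM. Its fall with cisplatin was 2.74-fold (log2 fold change −1.45, SE 0.18, adjusted p = 3.2e-07), after *Hspa5* the largest of the 10, and with AU-15330 it was 2.01-fold lower (−1.01, SE 0.18, adjusted p = 2.1e-05). With AU-15330 its value was −0.32 in replicates 1 to 3 alone, where the call was lost (adjusted p = 0.216), and −1.57 in replicates 4 to 6. With cisplatin it was −0.94 (adjusted p = 0.0047) and −1.84. Leaving out DMSO replicate 1 gave −1.60 with cisplatin and −1.16 with AU-15330. *Edem1*, which helps hand misfolded glycoproteins to degradation, was at 81.9 CPM in DMSO replicate 1 and at 146 to 173 CPM in the other 5. With cisplatin it ranged from 74.6 to 98.6 CPM and with AU-15330 from 88.6 to 107 CPM. It was lower with cisplatin (−0.74, SE 0.11, adjusted p = 5.4e-06) and with AU-15330 (−0.55, SE 0.11, adjusted p = 0.00012), with −0.84 and −0.66 when DMSO replicate 1 was left out.

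Over the comparison of cisplatin with DMSO, 10 of 10 genes were lower and 0 higher, while 25.7% of all tested genes were lower, 26% higher and 51.7% called in either direction. The log2 fold changes ran from −1.64 to −0.45 with a median of −0.71, against a median of 0.00 over all tested genes. Groups did not overlap for 3 genes (*Hsp90b1*, *Xbp1* and *Pdia4*), where 9.78% of all tested genes had every cisplatin library below every DMSO library. Without DMSO replicate 1 the count was also 10 (51.4% of all tested genes called). It was 6 with replicates 1 to 3 alone, when *Sdf2l1*, *Creld2*, *Dnajb9* (−0.40, adjusted p = 0.0542) and *Atf6* (−0.47, adjusted p = 0.141) lost their calls, and 10 with replicates 4 to 6. Scaling to total counts in place of TMM moved the share of lower genes among the calls over all genes from 49.8% to 38.9%, and 10 of the 10 genes were lower under it too. The SE and adjusted p given here rest on a spread pooled over the 4 groups, of which DMSO was the most spread. The fit of only the 2 groups compared also had 10 of 10 genes lower (43.7% of all tested genes called). Its adjusted p values were larger, 9.4e-05 for *Hspa5* and 0.0268 for *Atf6*.

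For AU-15330 against DMSO, which uses the same DMSO libraries, 9 of 10 genes were lower and 0 higher, beside 37.2% lower, 36.2% higher and 73.4% in either direction over all tested genes. The median log2 fold change was −0.79, against 0.00 over all tested genes. *Hspa5*, *Hsp90b1* and *Xbp1* had no overlap between groups, and 25.4% of all tested genes had every AU-15330 library below every DMSO library. The count was 10 without DMSO replicate 1 (73.3% of all tested genes called). It was 6 with replicates 1 to 3 alone (59.6%), when *Sdf2l1*, *Creld2* and *Herpud1* lost their calls. With total counts the share of lower genes among all calls was 41.4% in place of 50.7%, and 8 of the 10 genes were lower, *Creld2* being lost (−0.30, adjusted p = 0.0594). The fit of only these 2 groups had 9 of 10 genes lower (70.5% of all tested genes called). Its adjusted p values were again larger, 6.8e-06 for *Hspa5*, 8.0e-11 for *Xbp1* and 0.0319 for *Creld2*.

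**Figure D2:**
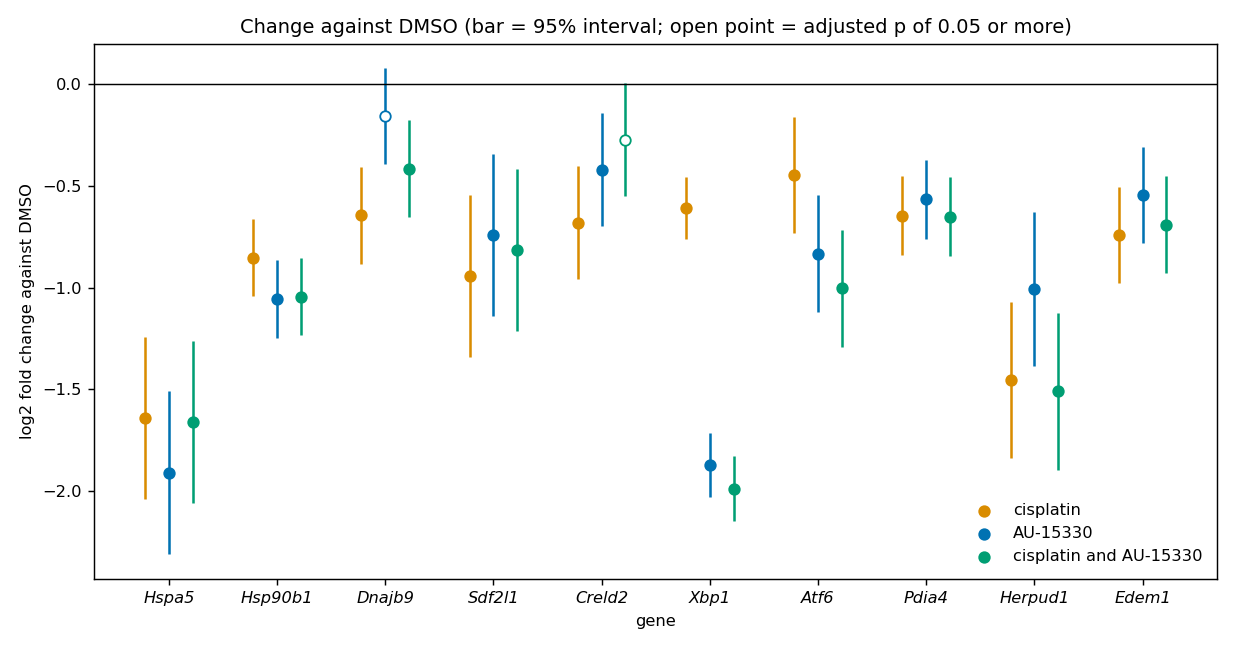
Log2 fold change of each gene against DMSO for cisplatin, AU-15330 and both drugs (points), with 95% intervals as bars from the fit of 24 libraries, 6 per group; the 3 comparisons share their DMSO libraries. All 30 points lie below 0, and the open points, *Dnajb9* with AU-15330 (adjusted p = 0.208) and *Creld2* with both drugs (adjusted p = 0.0654), did not pass the threshold.

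With both drugs, 9 of 10 genes were lower than with DMSO, where 36.5% of all tested genes were lower, 36.8% higher and 73.3% called in either direction. *Hspa5* (log2 fold change −1.66), *Xbp1* (−1.99) and *Herpud1* (−1.51) had the largest differences, and *Xbp1* was 3.97-fold lower (adjusted p = 7.4e-18). Leaving out DMSO replicate 1 gave −1.84, −2.03 and −1.67. *Creld2* had a log2 fold change of −0.27 (95% interval −0.55 to 0.00, adjusted p = 0.0654). It became −0.38 (adjusted p = 0.0043) without DMSO replicate 1, when all 10 passed (73.4% of all tested genes called). With replicates 1 to 3 alone 7 passed, as *Sdf2l1* (−0.24, adjusted p = 0.303) and *Dnajb9* (−0.21, adjusted p = 0.242) lost their calls. *Hsp90b1*, *Xbp1*, *Atf6* and *Pdia4* had no overlap, beside 24.7% of all tested genes with every combination library below every DMSO library. With total counts the share of lower genes among all calls was 40.3% in place of 49.9%. The fit of only these 2 groups also had 9 of 10 genes lower (70.2% of all tested genes called).

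**Figure D3:**
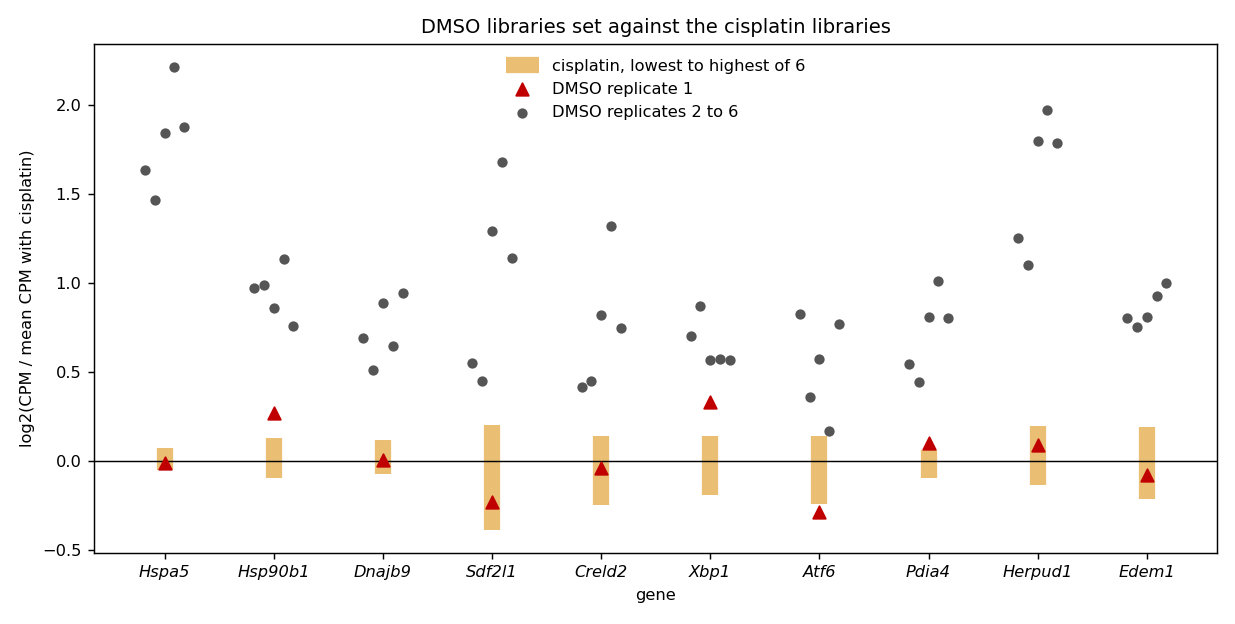
Each DMSO library as the log2 ratio of its CPM to the mean CPM of the 6 cisplatin libraries, by gene, with the range of the cisplatin libraries as bars. DMSO replicate 1 (triangle) falls within the bar for 6 of 10 genes, and the other 5 DMSO libraries lie above the bar for all 10.

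Adding AU-15330 to cisplatin lowered 2 of the 10 genes and raised 1, while 32.7% of all tested genes were lower, 35.4% higher and 68.1% called in either direction. *Xbp1* fell from a mean of 166 ± 12.7 to 63.9 ± 2.61 CPM (SD, n = 6 each), which is 2.60-fold (log2 fold change −1.38, SE 0.07, adjusted p = 9.5e-15). *Atf6* fell from 256 ± 29.4 to 174 ± 26.5 CPM (−0.55, SE 0.14, adjusted p = 0.00087), a call that was lost with replicates 1 to 3 alone (−0.39, adjusted p = 0.183), whereas replicates 4 to 6 gave −0.78. *Creld2* rose from 50.4 ± 4.47 to 66.9 ± 5.26 CPM (0.41, SE 0.13, adjusted p = 0.0087), a call that was lost without replicate 3 of every group (0.35, adjusted p = 0.0529). These 3 genes and *Hsp90b1* and *Dnajb9* had no overlap between the groups, with *Hsp90b1*, *Xbp1* and *Atf6* below and *Creld2* and *Dnajb9* above. Over all tested genes, 25.5% had every combination library below every cisplatin library and 24.7% had every one above.

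For the other 7 genes the combination and cisplatin differed by log2 values from −0.19 to 0.23. *Hspa5*, at 812 ± 30.1 CPM with both drugs and 823 ± 30.2 CPM with cisplatin, had a difference of −0.02 with a 95% interval of −0.41 to 0.37. That of *Pdia4* was 0.00 (−0.20 to 0.19). *Hsp90b1* (−0.19, adjusted p = 0.0621) and *Dnajb9* (0.23, adjusted p = 0.0762) missed the threshold in the fit over all 24 libraries, whose estimate of spread includes the DMSO group. Without DMSO replicate 1 both passed, at −0.21 (adjusted p = 0.0054) and 0.22 (adjusted p = 0.0323). Then 5 of 10 genes differed, where 69.6% of all tested genes did. *Hsp90b1* also passed without replicate 1 of every group (−0.23, adjusted p = 0.0058). With all replicates kept it passed in DESeq2 (−0.22, adjusted p = 0.0284) and in the fit of only the 2 groups compared (−0.22, adjusted p = 0.0028). Over all 17 settings tried, *Hsp90b1* passed in 5.

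Adding cisplatin to AU-15330 lowered 1 of 10 genes, *Herpud1*, from 113 ± 12.9 to 79.7 ± 7.06 CPM (SD, n = 6 each), a 1.42-fold difference (log2 fold change −0.50, SE 0.18, adjusted p = 0.0278). All 6 combination libraries were below all 6 with AU-15330, as they also were for *Pdia4* (206 to 218 against 220 to 230 CPM), whose difference did not pass. Over all tested genes, 13.6% had every combination library below every AU-15330 library and 16% had every one above. In this comparison 19.5% of all tested genes were lower, 22.2% higher and 41.7% called in either direction. The *Herpud1* call was lost without replicate 2 (−0.50, adjusted p = 0.0727), replicate 3 (−0.46, adjusted p = 0.0897), replicate 4 (−0.53, adjusted p = 0.0509) or replicate 6 (−0.53, adjusted p = 0.0501) of every group. *Hspa5* was the third gene with no overlap, with the 6 combination libraries at 772 to 858 CPM above the AU-15330 libraries at 646 to 727 CPM, but its log2 difference of 0.25 (95% interval −0.14 to 0.64, adjusted p = 0.298) did not pass. It passed without DMSO replicate 1, with 0.25 and adjusted p = 0.0199, as did *Dnajb9* with −0.26 and adjusted p = 0.0191. The count was then 3 of 10 (43.9% of all tested genes called). Without replicate 1 of every group *Dnajb9* (−0.34, adjusted p = 0.0040), *Xbp1* (−0.19, adjusted p = 0.0353) and *Edem1* (−0.19, adjusted p = 0.017) passed beside *Herpud1*.

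Whether AU-15330 acted differently in the presence of cisplatin was tested by the interaction term, the change with AU-15330 in cisplatin-treated cells minus that in DMSO-treated cells. It was positive for 8 of 10 genes and negative for 0, while 17.9% of all tested genes were higher by this term, 15.8% lower and 33.7% called in either direction. It was largest for *Hspa5* (log2 difference 1.89, SE 0.27, adjusted p = 5.5e-06), whose change with AU-15330 was −1.91 without cisplatin and −0.02 with it. It followed for *Herpud1* with 0.95 (adjusted p = 0.0057), *Sdf2l1* with 0.87 (adjusted p = 0.0143), *Hsp90b1* with 0.86 (adjusted p = 1.1e-05) and *Creld2* with 0.83 (adjusted p = 0.0013). *Edem1* (0.60), *Pdia4* (0.56) and *Xbp1* (0.50) also passed, and *Dnajb9* (0.39, adjusted p = 0.0633) and *Atf6* (0.28, adjusted p = 0.276) did not. With total counts 58.3% of all calls were lower by this term, in place of 47.0%. The DMSO libraries enter this term, and without DMSO replicate 1 *Dnajb9* passed as well (0.46, adjusted p = 0.0060), for a count of 9 (34.5% of all tested genes called). Without replicate 1 of every group *Dnajb9* was at 0.42 (adjusted p = 0.0123). *Sdf2l1* lost its call without replicate 4 (0.78, adjusted p = 0.0688) or replicate 5 (0.66, adjusted p = 0.0687) of every group. With replicates 1 to 3 alone 2 of the 10 genes were called by this term, *Hspa5* (1.42, adjusted p = 0.0355) and *Hsp90b1* (0.72, adjusted p = 0.0463), and with replicates 4 to 6 alone 9 were. *Herpud1* had 0.33 (adjusted p = 0.524) in the former and 1.38 in the latter, and *Sdf2l1* had 0.26 (adjusted p = 0.598) and 1.23.

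**Figure D4:**
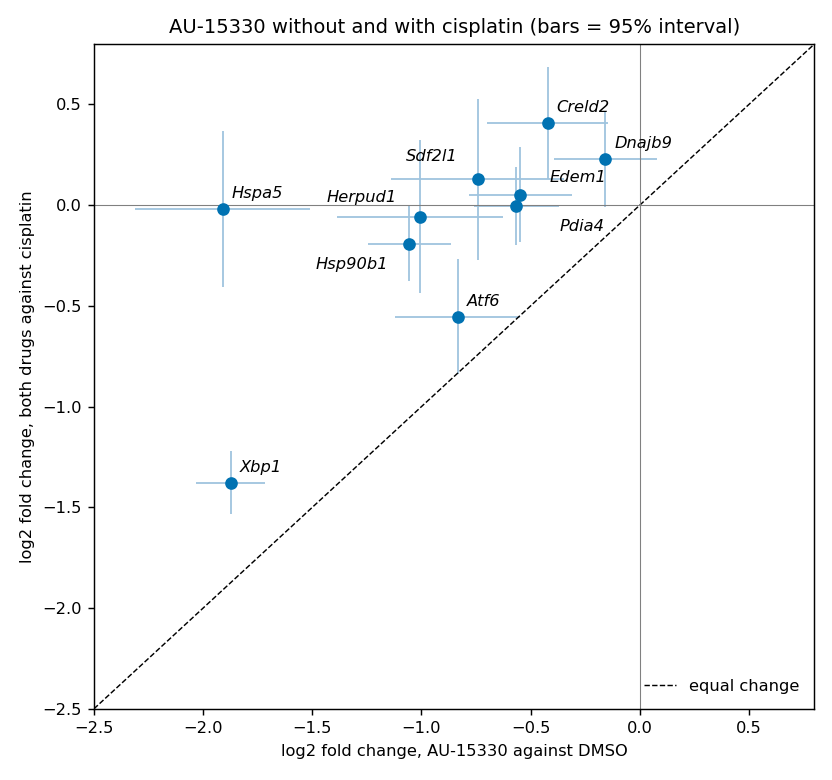
Log2 fold change of AU-15330 against DMSO (horizontal axis) and of both drugs against cisplatin (vertical axis), with 95% intervals, for the 10 genes; the dashed line marks equal change. All 10 points lie above the line, *Hspa5* farthest from it (−1.91 and −0.02), and *Xbp1* (−1.87 and −1.38) is low on both axes.

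Per kilobase of exon, which allows genes to be compared, *Hspa5* had the highest mean level in DMSO (607 ± 238 CPM per kb) and *Hsp90b1* came next (350 ± 65.9). *Pdia4* followed at 138 ± 29.7, *Herpud1* at 97.2 ± 37.9, *Xbp1* at 78.1 ± 9.66 and *Creld2* at 59.1 ± 19.2, followed by *Atf6* at 37.8 ± 10.1, *Sdf2l1* at 37.8 ± 16.8, *Edem1* and *Dnajb9*, the lowest with 17.7 ± 3.74 (SD, n = 6 each). In this order the ranges of 1 SD around the mean meet for every pair of neighbours except *Hsp90b1* and *Pdia4*. The genes were read in the same libraries, and DMSO replicate 1 was the lowest for all 10. Their spread is therefore shared, and ranges that meet do not show whether neighbours differ within a library. With cisplatin *Hspa5* and *Hsp90b1* were at 194 ± 7.14 and 194 ± 11.3 CPM per kb, and with AU-15330 at 162 ± 7.27 and 168 ± 3.47. *Xbp1* had 51.1 ± 3.92 CPM per kb with cisplatin and 21.3 ± 1.62 with AU-15330, where it was level with *Atf6* at 21.2 ± 2.09. These lengths cover all annotated exons, and the isoforms in use were not measured.

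A wider set of ER genes was read in the same fit, from 5 lists that hold none of the 10 genes. The lists were taken from textbook knowledge, with earlier results of these data known. They cover other chaperones, other disulfide enzymes, other genes of ER-associated degradation, the translocon with signal peptide processing, and the vesicle coats of ER export. With cisplatin, 54 of 74 tested genes of these lists were lower than with DMSO and 0 were higher, that is 73% and 0%, where 25.7% of all tested genes were lower and 26% higher. With AU-15330 43 were lower (58.1%, 37.2% over all) and 11 higher (14.9%, 36.2% over all), and with both drugs 41 were lower (55.4%, 36.5% over all) and 10 higher (13.5%, 36.8% over all). When AU-15330 was added to cisplatin, 27 were higher (36.5%), close to the 35.4% over all tested genes, and 13 were lower (17.6%, 32.7% over all). When cisplatin was added to AU-15330, 11 were lower and 11 higher (14.9% each), below the 19.5% and 22.2% over all tested genes. The interaction term was positive for 47 of the 74 (63.5%, 17.9% over all) and negative for 1 (1.35%, 15.8% over all). The shares over all tested genes apply to each list described below as well. Without DMSO replicate 1 the counts were 57 lower and 2 higher with cisplatin, 43 and 11 with AU-15330, and 46 positive and 1 negative for the interaction. List by list, in the order above, the number of lower genes without it was 10, 11, 13, 13 and 10 with cisplatin and 6, 8, 10, 10 and 9 with AU-15330.

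Among other chaperones, 11 of 16 were lower with cisplatin and 0 higher (median log2 fold change −0.29). *Hyou1*, an HSP70-like chaperone of the ER, fell from 457 ± 141 to 217 ± 8.86 CPM (log2 fold change −1.07, SE 0.15, adjusted p = 1.4e-06), and *Manf*, a secreted partner of BiP, fell from 185 ± 48.1 to 98.6 ± 12.9 CPM (−0.91, SE 0.13, adjusted p = 1.5e-06). With AU-15330 6 were lower (37.5%) and 5 higher (31.2%), near the 37.2% and 36.2% of all tested genes (median −0.05). *Hyou1* (−1.28) and *Manf* (−1.10) were again lower than in the shared DMSO libraries, and *Dnajc10* (0.45), a reductase with a J domain, and *Hspa13* (0.39), an HSP70-like protein, were higher. Adding AU-15330 to cisplatin raised 6 (37.5%, 35.4% over all) and lowered 1, with *Calr*, the lectin chaperone calreticulin, rising from 731 ± 56.8 to 1191 ± 59.5 CPM (0.71, SE 0.10, adjusted p = 3.3e-07).

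All 12 other disulfide enzymes were lower with cisplatin (median log2 fold change −0.57; 11 without DMSO replicate 1), and with AU-15330 8 were lower and 1 higher (median −0.68). *Ero1l*, the oxidase that supplies the disulfide isomerases, fell from 896 ± 599 CPM in DMSO to 111 ± 50.4 CPM with cisplatin (log2 fold change −3.01, SE 0.32, adjusted p = 1.4e-08) and to 39.6 ± 4.09 CPM with AU-15330 (−4.50, SE 0.34, adjusted p = 5.9e-12). *Pdia6* fell with cisplatin from 273 ± 38.6 to 162 ± 9.61 CPM (−0.75, SE 0.07, adjusted p = 3.6e-09). *Pdia5* fell with AU-15330 from 24.6 ± 3.35 to 7.50 ± 1.02 CPM (−1.71, SE 0.11, adjusted p = 1.7e-13). *Txndc12* rose with AU-15330 (0.39). When AU-15330 was added to cisplatin 5 of the 12 were higher and 4 lower. *Ero1lb* (0.69) and *Txndc12* (0.68) rose, and *Ero1l* (−1.19, adjusted p = 0.0011) and *Pdia5* (−0.78, adjusted p = 4.2e-07) fell.

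Of the other degradation genes, 11 of 17 were lower with cisplatin and 0 higher (median log2 fold change −0.28). *Sel1l*, the adaptor of the ligase HRD1, fell from 303 ± 80.6 to 145 ± 14.1 CPM (log2 fold change −1.07, SE 0.13, adjusted p = 2.7e-07), and *Erlec1*, a lectin of the same complex, fell by 0.66 on the log2 scale. With AU-15330, 9 were lower and 3 higher (median −0.31). *Edem3*, a relative of *Edem1*, rose with AU-15330 from 186 ± 40.8 to 445 ± 63.7 CPM (1.26, SE 0.13, adjusted p = 4.4e-09), and from 130 ± 22.3 with cisplatin to 479 ± 71.9 CPM with both drugs (1.88, SE 0.14, adjusted p = 3.4e-12). In the latter comparison 7 of the 17 were higher and 1, *Erlec1*, was lower (−0.26).

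Genes that move proteins into and out of the ER were lower in part. Of 17 translocon and signal peptide genes, 12 were lower with cisplatin and 0 higher, and 10 were lower and 1 higher with AU-15330. *Spcs2*, a signal peptidase subunit, had log2 fold changes of −0.71 (adjusted p = 2.1e-08) and −0.77 (adjusted p = 1.1e-09). When AU-15330 was added to cisplatin 6 of the 17 were higher and 3 lower. *Srprb*, a subunit of the signal recognition particle receptor and lower with cisplatin (−0.78), was then higher (0.73), and *Sec62* (−0.50), a subunit of the translocon, and *Spcs2* (−0.24) were lower. Of 12 vesicle coat genes, 8 were lower and 0 higher with cisplatin, and 10 were lower and 1 higher with AU-15330. *Sec24d*, a cargo adaptor of the coat, fell from 105 ± 40.9 CPM in DMSO to 43.3 ± 3.10 CPM with cisplatin (−1.28, SE 0.19, adjusted p = 4.1e-06) and to 16.4 ± 2.43 CPM with AU-15330 (−2.68, SE 0.20, adjusted p = 6.8e-12). When AU-15330 was added to cisplatin 3 of the 12 were higher and 4 lower. *Lman1*, a cargo receptor and lower with cisplatin (−0.91), was then higher (0.64), and *Sec24d* (−0.78) and *Mcfd2* (−0.41), a partner of *Lman1*, were lower.

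**Figure D5:**
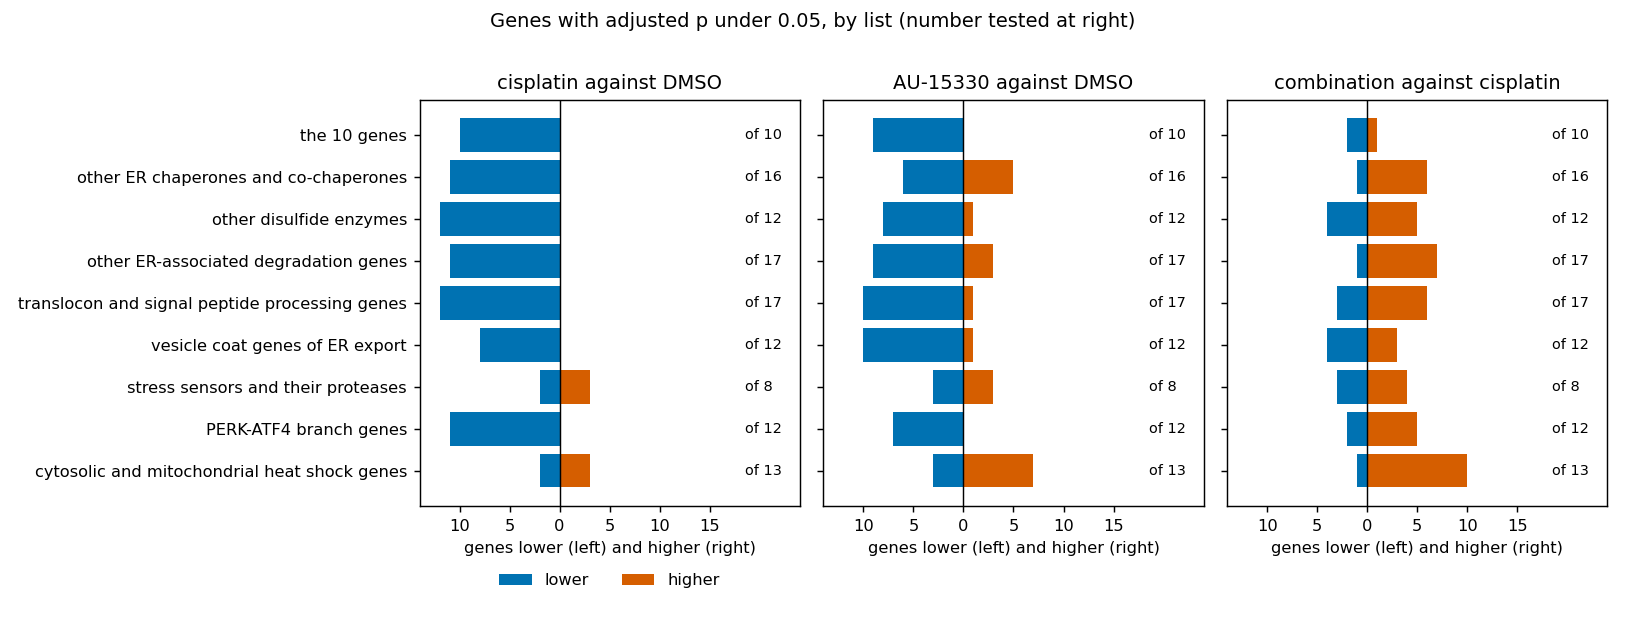
Number of genes of each list with an adjusted p under 0.05 that were lower (to the left of 0) or higher (to the right), for 3 comparisons of 6 libraries with 6, with the number of genes tested at the right. With cisplatin against DMSO the 10 genes and the 5 lists of ER genes have bars on the lower side alone, and with the combination against cisplatin 27 of the 74 genes of those 5 lists are higher and 13 lower, where 35.4% and 32.7% of all tested genes are.

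The sensors of the response and the proteases that cut ATF6 moved in both directions with either drug alone. With cisplatin, 2 of 8 were lower (25%, 25.7% over all) and 3 higher (37.5%, 26% over all), and with AU-15330 3 were lower and 3 higher (37.5% each, 37.2% and 36.2% over all). Without DMSO replicate 1, 4 of 8 were lower and 3 higher in each, where 3055 and 4780 of 13053 tested genes were lower. Adding AU-15330 to cisplatin raised 4 (50%, 35.4% over all) and lowered 3 (37.5%, 32.7% over all). *Ern1*, which encodes the sensor IRE1, had 89.9 ± 30.5 CPM in DMSO and 162 ± 33.9 CPM with AU-15330, a rise of 0.85 on the log2 scale (SE 0.21, adjusted p = 0.00065), and it rose by the same 0.85 when AU-15330 was added to cisplatin (SE 0.21, adjusted p = 0.00074). *Xbp1*, the mRNA that IRE1 splices, was lower in both comparisons. *Eif2ak3*, the gene of PERK, was lower with AU-15330 (−0.33, SE 0.11, adjusted p = 0.0066). *Creb3*, a membrane-bound factor of the ER related to ATF6, was higher with cisplatin (0.37) and lower with AU-15330 (−0.84). *Mbtps1*, the first protease to cut ATF6, was lower with cisplatin (−0.32) and higher with AU-15330 (0.37).

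Genes of the PERK and ATF4 branch were lower with cisplatin for 11 of 12 (91.7%, 25.7% over all) and higher for 0, with a median log2 fold change of −1.05. *Trib3*, a pseudokinase that ATF4 raises, fell from 128 ± 54.9 to 32.9 ± 3.46 CPM (log2 fold change −1.96, SE 0.23, adjusted p = 1.2e-07), and the stress factor *Atf3* fell from 109 ± 42.9 to 33.7 ± 7.83 CPM (−1.70, SE 0.21, adjusted p = 1.5e-07). With AU-15330, 7 were lower (58.3%, 37.2% over all) and 0 higher (median −0.75), and without DMSO replicate 1 the counts were 11 and 9 lower and 0 higher. Adding AU-15330 to cisplatin raised 5 (41.7%, 35.4% over all) and lowered 2 (16.7%, 32.7% over all). Among the former were *Ddit3*, the gene of the factor CHOP, which rose from 41.0 ± 8.75 to 100.05 ± 8.34 CPM (1.29, SE 0.20, adjusted p = 3.5e-06), and *Chac1* from 19.1 ± 3.84 to 53.5 ± 4.50 CPM (1.48, SE 0.22, adjusted p = 1.3e-06). *Nupr1*, another stress gene, fell in the same comparison (−2.05). The summed level of the 12 genes was 1035 CPM in DMSO replicate 1 and at least 1723 CPM in the other DMSO libraries, against 1054 to 1454 CPM with cisplatin.

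Heat shock genes of the cytosol and mitochondria, which answer misfolding outside the ER, were lower with cisplatin for 2 of 13 (15.4%, 25.7% over all) and higher for 3 (23.1%, 26% over all), with a median log2 fold change of 0.05. With AU-15330 7 were higher (53.8%, 36.2% over all) and 3 lower (23.1%, 37.2% over all), with a median of 0.27. Adding AU-15330 to cisplatin raised 10 (76.9%, 35.4% over all) and lowered 1 (7.69%, 32.7% over all), with a median of 0.30. These 6 counts were the same without DMSO replicate 1. Their summed level in DMSO ran from 6480 to 8643 CPM, and replicate 1 with 7822 CPM lay inside that range.

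Lists of cell division and oxygen supply moved with the treatments as well. All 10 proliferation genes were higher with cisplatin (median log2 fold change 2.57) and with AU-15330 (1.00) than with DMSO. Their summed level was 303 to 474 CPM in DMSO, 1531 to 2072 CPM with cisplatin, 648 to 1219 CPM with AU-15330 and 2269 to 2690 CPM with both. Of 11 tested low-oxygen target genes, 9 were lower and 1 higher with cisplatin (median −1.43), and 8 were lower and 3 higher with AU-15330 (median −2.69). These had summed levels of 2792 to 5244 CPM in DMSO, 1126 to 2158 CPM with cisplatin and 926 to 1026 CPM with AU-15330. The counts of both lists in these comparisons were the same without DMSO replicate 1. DMSO replicate 1, low for the 10 ER genes, lay inside the DMSO range for both lists, with 386 and 4585 CPM. The part of cell division or oxygen supply in the levels of the 10 genes was not tested.

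Genes whose profile over the 24 libraries came closest to the mean profile of the 10 were sought among 6501 others with a mean log2 CPM of at least 5, by the root mean square difference of log2 CPM centred per gene. The nearest were *Dgkd* (0.14), *Wars* (0.16), *Serp1* (0.16), *Golga4* (0.17), *Sft2d2* (0.17), *Pdia6* (0.18), *Hyou1* (0.18), *Rnf145* (0.18), *P3h1* (0.19) and *Nfxl1* (0.19), where the median of all candidates was 0.50. *Serp1* had mean levels of 269 CPM in DMSO, 147 CPM with cisplatin, 147 CPM with AU-15330 and 170 CPM with both drugs. Among the 10 genes themselves *Hsp90b1* lay nearest to their mean profile (0.13) and *Xbp1* farthest (0.60). These values share libraries and scaling and are given as a description.

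The promoter elements can be set beside these values for all genes that carry them. Of the genes with the first form in their RefSeq window, 16 were tested, which include *Hspa5*, *Hsp90b1* and *Creld2* and 6 genes of the other ER lists. With cisplatin 10 of the 16 were lower and 2 higher (median log2 fold change −0.30), and with AU-15330 11 were lower and 2 higher (−0.38), beside 25.7% and 37.2% of all tested genes that were lower in these comparisons. The 9 carriers from the 10 genes and the ER lists made up 8 of the lower genes with cisplatin and 8 with AU-15330. Of the 7 other carriers, 2 were lower and 2 higher with cisplatin, and 3 were lower and 2 higher with AU-15330. When AU-15330 was added to cisplatin, 3 of all 16 carriers were lower and 5 higher (median 0.02), where 32.7% of all tested genes were lower and 35.4% higher. *Pdia6*, which the rule for naming genes gave, was among those lower with cisplatin. The other genes named here were picked after their values were seen. *Calr* was lower with cisplatin (−0.31, adjusted p = 0.0072), whereas *Syvn1*, the gene of HRD1, had a value of −0.15 (adjusted p = 0.298) and *Calr4* was higher (1.69, adjusted p = 1.0e-08). The second form gave 7 tested genes, of which 5 were lower and 0 higher with cisplatin (median −0.21) and 5 lower and 0 higher with AU-15330 (−0.36), and 2 were lower and 2 higher when AU-15330 was added to cisplatin (−0.01). Of its 5 carriers in no list, 4 were lower and 0 higher with each drug alone. *Herpud1* was among the lower genes with cisplatin, and *Dnajb11*, another J-domain partner of BiP, had a value of −0.01 (adjusted p = 0.902). *Xbp1*, *Dnajb9*, *Sdf2l1*, *Pdia4* and *Edem1* were lower with cisplatin and carried neither form in the window searched, which says only that these letters are not there.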

How the data were processed

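Polyadenylated RNA was read in 24 strand-specific, single-end libraries of 70 bases. Per the labels, the submitters' processing notes name STAR 2.7.1a, DESeq2 1.36.0 and the build mm10. The counting tool, its strand setting and the annotation were not given in the sources used here. The deposited values are raw read counts per gene symbol, not normalized, in 48 columns, all of which could be assigned to a library by the sample titles (0 unmatched). Counts of the 2 sequencing lanes were added per library. Lanes of 1 library differed by a chi-square per degree of freedom of 1.36 to 1.46, libraries of 1 group by 2.30 to 122. edgeR 4.0.16 in R 4.3.3 fitted group means to all 24 libraries (filterByExpr, TMM, quasi-likelihood F test, 20 residual degrees of freedom, Benjamini-Hochberg threshold of 0.05), after it was tested on simulated data. CPM values and log2 CPM (prior count of 2) come from the same scaling.

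The rule for the 10 genes uses symbols alone, but they and the 12 other lists, with 136 tested genes, were chosen with earlier results of these data known, and no list was tested as a set. Besides the 10 genes, the text names up to 2 called genes of largest increase and 2 of largest decrease per list and comparison with a mean log2 CPM of at least 3, for part of the lists and comparisons, and the 10 closest profiles. Genes named for a promoter element alone, and the 1810014B01Rik overlap, fall outside this rule. Positions come from GENCODE M21 and promoter windows from RefSeq. DESeq2 1.42.0, other scalings, no filter on low counts, a required fold change of 1.5, fits of 2 groups, a replicate block and fits without a replicate were alternatives. Leaving out DMSO replicate 1 alone was added after the data were seen.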

Additional observations from a re-analysis of the deposited data

Results flagged for a closer look

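The effect of AU-15330 with cisplatin minus its effect without it differed from 0 by the interaction term of the fit over all 24 libraries (edgeR, adjusted p under 0.05 over all tested genes) for 8 of the 10 genes, by log2 values of 1.89 for *Hspa5*, 0.86 for *Hsp90b1*, 0.87 for *Sdf2l1*, 0.83 for *Creld2*, 0.50 for *Xbp1*, 0.56 for *Pdia4*, 0.95 for *Herpud1* and 0.60 for *Edem1*. The DMSO libraries, with the spread described above, enter each of these values.

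Of 40 sets of 6 libraries (10 genes in 4 groups), 2 had a library whose gap to its nearest neighbour was larger, relative to the spread of all 6, than Dixon's test allows at the 95% level, where chance gives about 2.0 (1 in 20). One was *Edem1* in DMSO, with replicate 1 lowest and a gap of 0.703 of the range. The other was *Dnajb9* with cisplatin, with replicate 2 highest at 31.4 CPM and a gap of 0.668.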

How the results depend on the processing

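Alternatives kept the direction and the side of the threshold in 848 of 950 values of the 10 genes. In 51 a call was lost with the sign kept, in 33 one was gained and in 18 the sign changed, 1 of them (*Creld2*, below) with the loss of a call. Of 1040 values of the other list genes followed, 73 lost their call and 0 changed sign. Leaving out 1 replicate number, or DMSO replicate 1 alone, gave 9 to 10 genes called for cisplatin against DMSO, 8 to 10 for AU-15330 against DMSO, 2 to 5 for both drugs against cisplatin, 0 to 4 for both against AU-15330, 9 to 10 for both against DMSO and 7 to 9 for the interaction. A fold change above 1.5 left 3, 5, 1, 0, 5 and 1 of the 10 genes in this order, and 1789, 4657, 3803, 842, 4683 and 926 of all genes. Replicates 1 to 3 alone left 6, 6, 2, 0, 7 and 2 genes called in the same order (33.5%, 59.6%, 52.0%, 21.7%, 60.6% and 13.1% of all genes). Replicates 4 to 6 alone gave 5 for both against AU-15330 (42.0% of all genes) and 9 for the interaction (37.0% of all genes). Fits of only the 2 groups compared called 5 genes for both against cisplatin (70.4% of all genes) and 5 for both against AU-15330 (54.5% of all genes), and could not be made for the interaction. The causes were not tested.

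Sign changes were as follows. With replicates 1 to 3 *Creld2* went from a called −0.42 to 0.0021 for AU-15330 against DMSO, and from −0.27 to 0.10 for both drugs against DMSO. For both against cisplatin, total counts gave 0.046 for *Hspa5*, 0.062 for *Pdia4* and 0.0073 for *Herpud1*. *Pdia4* was 0.0079 without the low-count filter, and 0.0039 and 0.0029 without replicate 4 or 5 (leaving out 1 number, −0.055 to 0.0039). *Herpud1* was 0.016 with replicates 1 to 3, and *Edem1* was −0.0085 without replicate 1, −0.0076 without replicate 3 and −0.10 with replicates 4 to 6. For both against AU-15330 *Hsp90b1* (−0.033 to 0.014 when leaving out 1 number) was −0.0049 with DESeq2 size factors, −0.0047 with DESeq2, −0.033 without replicate 1, −0.0062 without replicate 6, −0.011 with replicates 1 to 3 and −0.032 with replicates 4 to 6. Total counts shifted the median of all genes by 0.13 for AU-15330 against DMSO and 0.14 for both against DMSO.

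Same-numbered replicates deviated together more than others (mean r = 0.145, lowest −0.133, over 0.1 in 23 of 36 pairs, against a mean of −0.027 and 35 of 180 for different numbers), and 10 of 24 libraries correlated best with their own number. The labels name no shared batch or day and not every pair was over 0.1, so the numbers were not taken as pairs. With the replicate block, 10, 9, 4, 2, 9 and 9 of the 10 genes were called in the order above, against 10, 9, 3, 1, 9 and 8 without it, and 6185 of all genes were called for both against AU-15330 (47.8%). The gains with the block were *Dnajb9* for both against cisplatin (0.23, adjusted p = 0.0385), for both against AU-15330 (−0.25, adjusted p = 0.0400) and for the interaction (0.38, adjusted p = 0.0299).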
